A study of Mus musculus with 12 samples.

Results

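TM3 cells, an established line of Leydig cells from the immature mouse testis, were exposed to 5 mM methoxyacetic acid (MAA), and the response after 8 h was compared with the response after 3 h. MAA is the active metabolite of the solvent ethylene glycol monomethyl ether and is toxic to the testis. The comparison used 4 of the 12 arrays of the study, 2 arrays at each time, chosen by their labelled concentration and time. Each was a 2-color Agilent whole mouse genome array on which RNA from a pool of 3 MAA-treated cultures was hybridized against RNA from control cultures kept in medium alone for the same time. All cultures, controls included, were grown in medium with horse and fetal bovine serum to partial confluence before treatment, and no line, allele or other agent set the groups apart. The dyes were swapped between the arrays of a pair, so that treated cells were read in green on the first replicate and in red on the second. The remaining 8 arrays, at 1 mM for 3, 8 and 24 h and at 5 mM for 24 h, served here for the estimate of the spread and for a comparison with 1 mM. Each treated pool came from separate cultures. Whether the control RNA of the 1 mM and 5 mM arrays was the same was not given in the sources used here, and the p-values measure only the spread between arrays of a group.

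A log2 ratio is the log2 of the MAA signal over the control signal on an array, so a value of 1 is a 2-fold higher signal in treated cells. The quantity followed below is the difference between times, the mean log2 ratio at 8 h minus that at 3 h. A ratio of this kind changes when the treated cells change, when the control cells change, or when both do. Each channel can also be read by itself, but its change between arrays then depends on how the arrays are scaled to each other. Growth factors act through ERK, the kinase at the end of a cascade that turns on immediate early genes such as Egr1 and then its own inhibitors, the Spry and Dusp genes, while bone morphogenetic protein signals turn on the Id genes, which encode inhibitors of bHLH transcription factors. In clock biology, Per1 and Per2 are both immediate targets of cAMP and growth factor signals and repressors within the circadian loop. Leydig cells make testosterone from cholesterol, under luteinizing hormone and cAMP.

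Of the 41174 probes tested, 2101 (5.10%) differed between 8 h and 3 h at 5 mM at an adjusted p under 0.05 in a limma fit over all 12 arrays, 1151 with a higher ratio at 8 h (2.80%) and 950 with a lower ratio (2.31%). Of these, 504 also changed over 2-fold, 304 up and 200 down. With 1 probe for each of 16017 gene symbols, 1041 genes were called (6.50%), 608 higher (3.80%) and 433 lower (2.70%); these shares are the background against which the gene lists are read. In all 2101 called probes the 2 arrays at 8 h lay apart from the 2 at 3 h, which was also so for 44.5% of all probes. Replicate 2 of both times lay on the same slide and carried the same dyes, and within that slide 569 of the called probes differed over 2-fold. These arrays took part in the calls, so that count is not a separate test, and the share over all probes was not taken. Over all probes the 2 replicate arrays correlated at r = 0.496 at 3 h and 0.630 at 8 h, and among probes well above background at 0.793 and 0.879. Between 61.5% and 67.8% of probes were well above background in a channel of these 4 arrays, no called probe had a saturated spot, and 1847 of the called probes were well above background in both channels on all 4 arrays.

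The number of calls rested on the whole set of arrays. It was 918 without replicate 1 at 3 h, 352 without replicate 2 at 3 h, 323 without replicate 1 at 8 h and 235 without replicate 2 at 8 h. In limma fits of the 4 arrays alone, or of the 6 arrays at 5 mM alone, no probe was called, with 5104 and 6066 at an unadjusted p under 0.05 against 7754 in the fit of all arrays. Centering each array on its median ratio moved the median difference of all probes from 0.06 to -0.07 and left 640 calls, 32.3% of them higher at 8 h against 54.8% before. Of 89 called probes named in this text by a set rule, 26 were called in each of the 4 fits that left out an array: those for Abca9, Brinp3, Celsr1, Clu, Cxcl5, Cxcl10, Cyp1a1, Dusp4, Dusp6, Egr1, Fgf21, Id2, Id3, Ifi202b, Ifi204, Ifi205, Krtap1-5, Nr4a1, Ogn, Per1, Per2, Prx, Radil, Sema3a, Srxn1 and Upb1. The others lost the call in at least 1 of these fits, 37 of them in all 4.

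The largest increase among probes well above background was that of Cyp1a1, the cytochrome P450 that oxidizes polycyclic aromatic hydrocarbons and is the classic target of the aryl hydrocarbon receptor. Its log2 ratio was -0.33 and -0.82 at 3 h and 2.58 and 2.46 at 8 h, so it lay a little under the controls early and far above them later. The difference was 3.09 ± 0.27 (SE, limma adjusted p = 0.00331). The MAA channel differed by -0.15 between the times and the control channel fell by 3.25 (limma adjusted p = 0.495 and 8.35e-05). Thus the higher ratio at 8 h came with a fall of the Cyp1a1 signal in control cells and little change in treated cells. Krtap1-5, a keratin-associated protein gene, behaved likewise: its ratio was -1.81 and -1.35 at 3 h and 1.06 and 1.67 at 8 h, with a change of 0.06 in the MAA channel and of -2.89 in the control channel. On the 1 mM arrays the control signals of Cyp1a1 and Krtap1-5 changed by -3.06 and -2.78, close to those on the 5 mM arrays, and there the 1 mM MAA channel also fell, by 1.99 and 1.78.

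**Figure D1:**
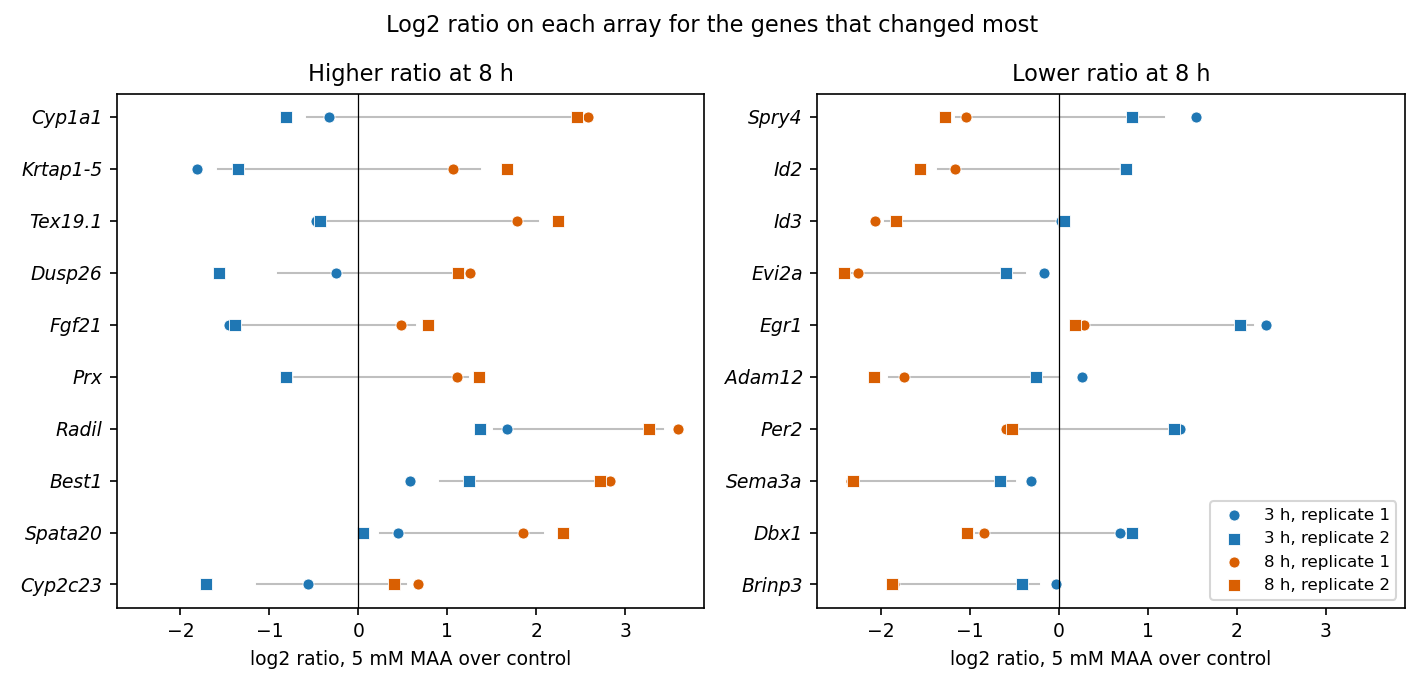
Log2 ratio of 5 mM MAA over control (x axis) on each of the 4 arrays for the 10 genes with the largest increase (left) and the 10 with the largest decrease (right) among called probes well above background; blue marks are 3 h, orange marks 8 h, circles replicate 1 and squares replicate 2, and the gray line joins the means. The orange marks lie apart from the blue ones in every row, as the choice of these genes required.

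For Best1, Spata20 and Dusp26 it was mainly the treated cells that moved, and for Radil both channels rose, the MAA channel more. Radil, an effector of Rap GTPases in cell adhesion, went from 1.67 and 1.37 to 3.59 and 3.27; its MAA channel rose by 3.01 and its control channel by 1.10, and a further probe gave a difference of 1.10. Best1, a calcium-activated chloride channel, went from 0.58 and 1.24 to 2.83 and 2.71, with 2.32 in the MAA channel and 0.46 (adjusted p = 0.164) in the control channel. Both genes were already above the controls at 3 h and higher still at 8 h. Spata20, a spermatogenesis-associated gene, was near the controls at 3 h (0.45 and 0.05) and at 1.85 and 2.30 at 8 h, and Dusp26, a dual-specificity phosphatase, went from -0.25 and -1.56 to 1.25 and 1.12, its 3 h arrays being far apart. Fgf21, a stress-induced metabolic hormone, was low at 3 h (-1.45 and -1.39) and above the controls at 8 h (0.48 and 0.79), a difference of 2.05 ± 0.14 (adjusted p = 0.00162), and a separate probe for it gave 2.02. The MAA channel of Fgf21 rose by 1.23 and its control channel changed by -0.82 (limma adjusted p = 0.0561). Prx, which encodes the myelin protein periaxin, rose by 0.88 in the MAA channel while its control channel fell by 1.16, for a difference of 2.04. Tex19.1, a germ cell gene, and Cyp2c23, an arachidonic acid epoxygenase, completed the 10 largest increases with differences of 2.47 ± 0.50 and 1.68 ± 0.34. In that order their MAA channels changed by 1.18 and 1.15 and their control channels by -1.29 and -0.52.

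Among probes well above background on all 4 arrays, the largest decreases were led by inhibitors of signaling and transcription. Spry4, a feedback inhibitor of receptor tyrosine kinase signaling, went from log2 ratios of 1.55 and 0.83 to -1.04 and -1.27 and so turned from above to below the controls (difference -2.34 ± 0.41, adjusted p = 0.0225). Id2 (the first of its 2 called probes) turned in the same way, from 0.74 and 0.76 to -1.16 and -1.56, while Id3 was level with the controls at 3 h (0.03 and 0.06) and well below them at 8 h (-2.07 and -1.83). The differences were -2.11 ± 0.22 (adjusted p = 0.00526) for Id2 and -1.99 ± 0.11 (adjusted p = 0.00123) for Id3. Egr1, the zinc finger factor induced by ERK, was high over the controls at 3 h (2.33 and 2.04) and close to them at 8 h (0.28 and 0.19; difference -1.95 ± 0.17, adjusted p = 0.00329). In these 4 genes the control channel rose, by 1.98, 2.05, 2.29 and 2.42 in the order Spry4, Id2, Id3 and Egr1, and the MAA channel changed by -0.36, -0.07, 0.30 and 0.47. The Egr1 signal of treated cells did not fall between 3 h and 8 h, and the control signal came up to it. The other Spry4 probe was at background on all 4 arrays. Evi2a, a gene within an intron of Nf1, was under the controls at both times and also fell with a rise of the controls, from -0.16 and -0.59 to -2.25 and -2.41, with -0.37 in the MAA and 1.58 in the control channel.

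Adam12, Per2 and Brinp3 fell in the treated cells themselves. Adam12, a metalloprotease of the cell surface, went from 0.26 and -0.26 to -1.74 and -2.08, with a change of -2.18 in the MAA channel and -0.27 in the control channel, and its other probe was also called (-1.73). Per2 was at 1.36 and 1.29 at 3 h and at -0.60 and -0.53 at 8 h, a difference of -1.89 ± 0.08 (adjusted p = 0.00123); its MAA channel fell by 1.38 and its control channel rose by 0.51. The arrays of each time agreed closely here and the times lay far apart, although the other probe for Per2 showed no change (0.01). Brinp3, a neural gene of the BMP/retinoic acid-inducible family, changed by -2.21 in the MAA channel and by -0.56 in the control channel. Sema3a, a secreted guidance cue, moved in both channels and in opposite directions, by -0.74 with MAA and 1.10 in controls, as its ratio went from -0.31 and -0.66 to -2.34 and -2.31. Dbx1, a homeobox gene of the neural tube, had a difference of -1.69 ± 0.22, with -0.99 in the MAA channel and 0.71 in the control channel (limma adjusted p = 0.0153 and 0.250).

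Where a probe was not well above background on both arrays of a channel at 1 of the times, the difference is a bound. The bright mean was set against the higher of the detection limit of the array and the dim signal itself. By this measure the ratio at 8 h was at least 4.71-fold higher than at 3 h for Upb1, which encodes an enzyme of pyrimidine breakdown, and at least 4.55-fold higher for Celsr1, a cadherin of planar cell polarity. The adjusted p-values of their differences were 0.00181 and 0.00123. For Upb1 the MAA channel rose by 1.04 and the control channel fell to a level not well above background at 8 h. For Ccdc116 the limit did not come into play, so the value is the difference itself, 2.71-fold higher at 8 h. A second Ccdc116 probe gave 0.45 and was not called (limma adjusted p = 0.630). The ratio was at least 3.21-fold lower at 8 h for Abca9, a lipid transporter of the ABCA family (other probes for this gene: -1.34, adjusted p = 0.0582, and -0.18), and at least 3.11-fold lower for Omd, the matrix proteoglycan osteomodulin. For Prr9 the bound was 1.77-fold. Ncan and Got1l1, called higher, and Igfbp1, called lower, were clear of background on all 4 arrays in neither channel, and no bound is given for them.

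Across all called probes the MAA channel changed more than the control channel in 66.5% of those with a higher ratio at 8 h (765 of 1151) and in 59.9% of those with a lower ratio (569 of 950). The same share over all probes was not taken, so these shares are not read as particular to the called probes. Both channels moved for much of the array between the times: at an adjusted p under 0.05, 34.6% of all probes differed in the MAA channel and 27.7% in the control channel. Of the 1151 probes with a higher ratio, 407 passed in the MAA channel alone, 210 in the control channel alone, 473 in both and 61 in neither; the same counts for the 950 with a lower ratio were 353, 199, 355 and 43. Changes of over 2-fold in the MAA channel with the control channel within 0.5 of no change numbered 166 up and 90 down. The reverse, over 2-fold in the control channel with the MAA channel within 0.5, numbered 42 and 61, and Cyp1a1, Krtap1-5, Id2, Id3, Egr1 and Spry4 were among them. These channel values rest on scaling the arrays to each other: without it the median change of all probes was 0.55 in the MAA and 0.50 in the control channel, against 0.00 and -0.06 with it, and the MAA channel then changed more in 91.4% of the probes with a higher and 18.9% of those with a lower ratio.

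**Figure D2:**
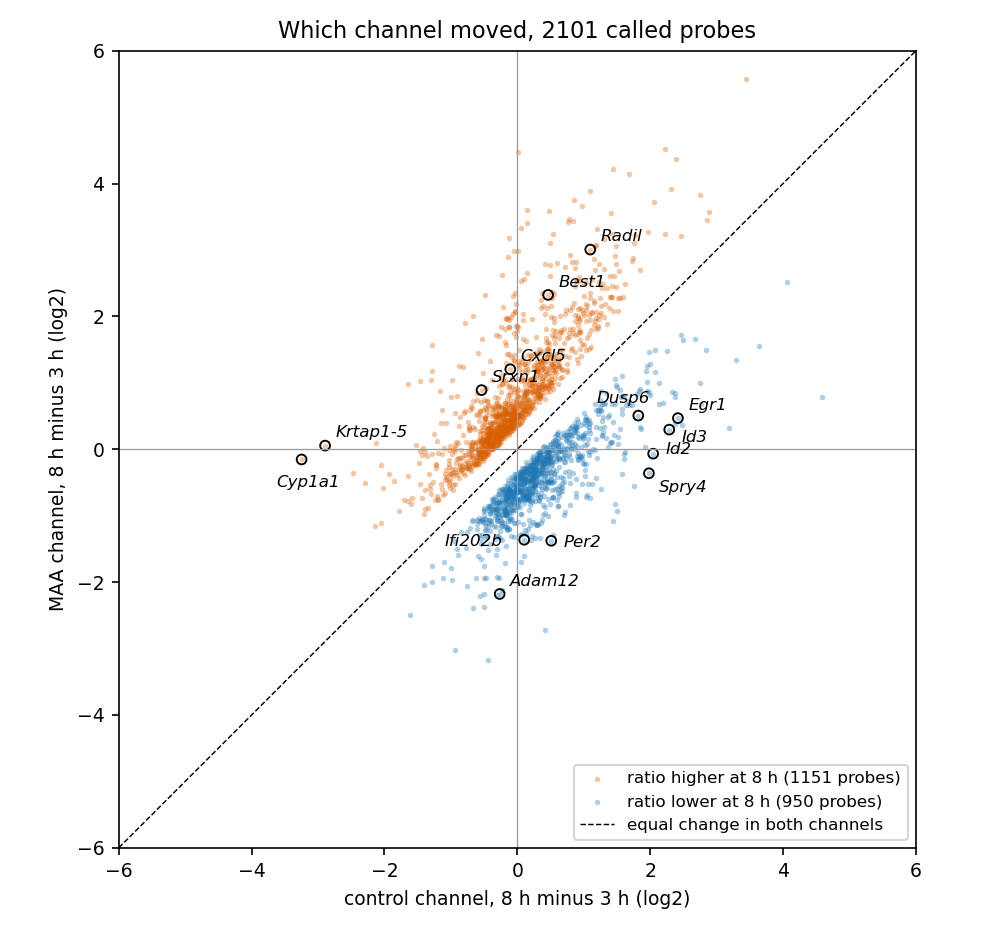
Change from 3 h to 8 h in the control channel (x axis, log2) and in the MAA channel (y axis, log2) for the 2101 called probes, orange where the ratio was higher at 8 h and blue where it was lower; the dashed line marks equal change and named genes are circled. Cyp1a1 and Krtap1-5 lie on the left near a MAA change of 0, Egr1, Id2, Id3, Spry4 and Dusp6 on the right, and Radil, Best1, Adam12, Per2 and Ifi202b were moved mainly along the MAA axis.

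The signals on each array show the split plainly. For Egr1 the control signal (log2, scaled between arrays) was 8.999 and 9.12 at 3 h and 11.54 and 11.41 at 8 h, while the MAA signal was 11.33 and 11.15, then 11.82 and 11.60. The Id3 control signal went from 10.98 and 10.98 to 13.25 and 13.28, and that of treated cells from 11.01 and 11.03 to 11.18 and 11.45. In both genes the 2 control arrays at 8 h stood above the 2 at 3 h by far more than the arrays of a time differed from each other. For Ifi202b, an interferon-inducible gene of the p200 family, the control signal stayed between 14.05 and 14.17, whereas the MAA signal went from 14.35 and 14.18 to 12.89 and 12.92. Srxn1, which encodes sulfiredoxin, an antioxidant enzyme, crossed over: 13.85 and 13.81 with MAA against 14.23 and 14.29 in controls at 3 h, and 14.79 and 14.65 against 13.81 and 13.64 at 8 h.

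**Figure D3:**
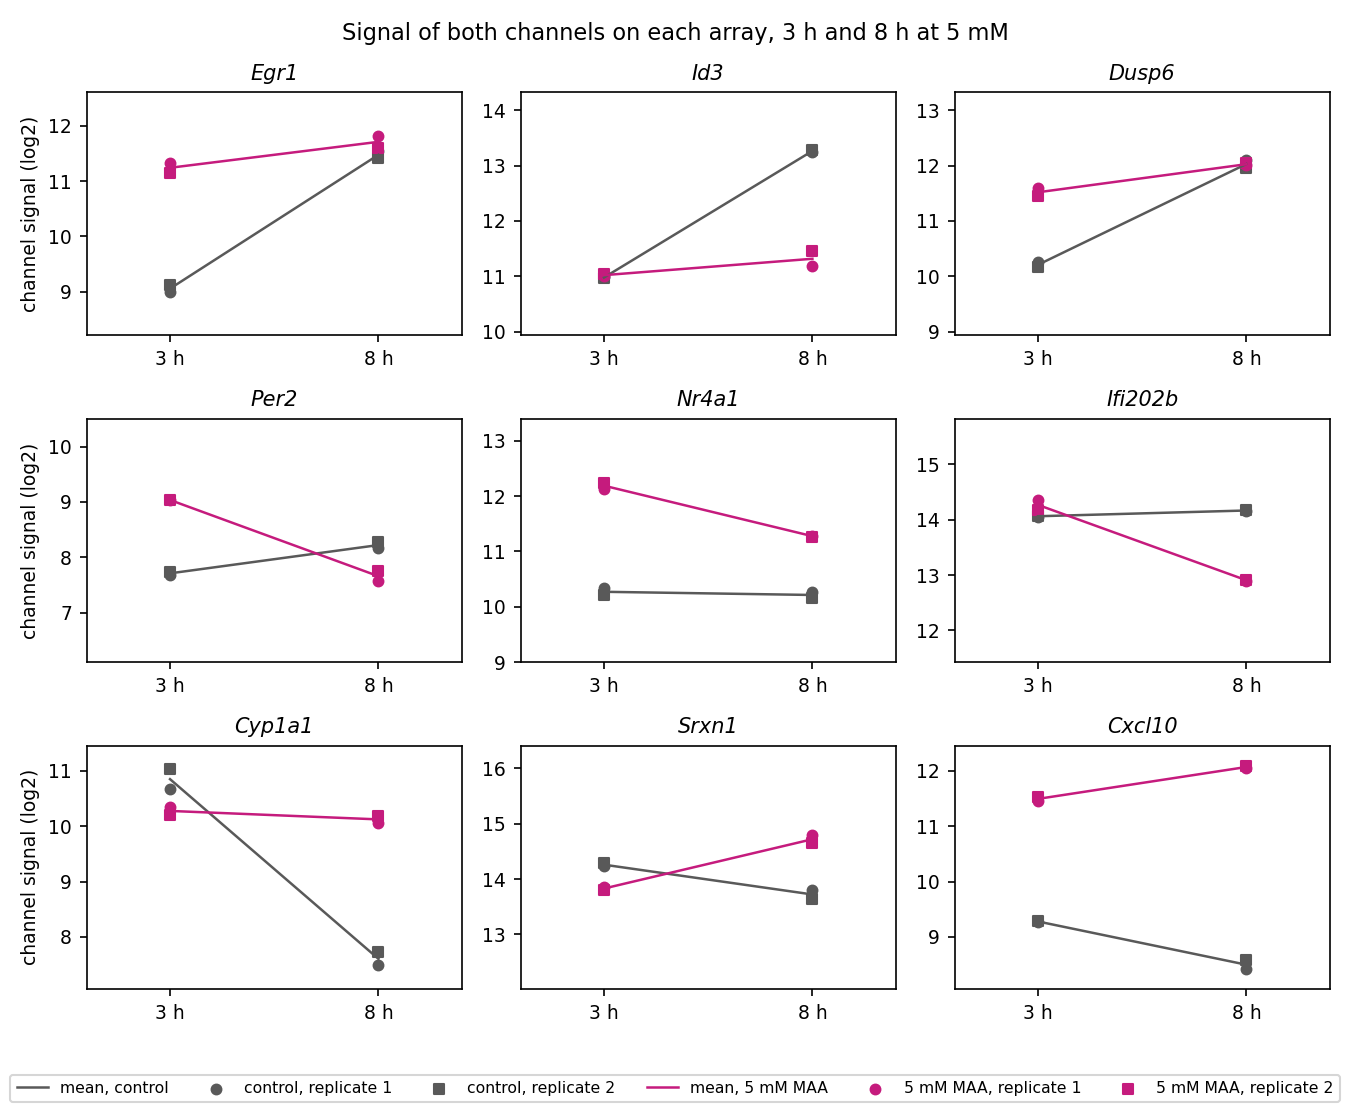
Log2 signal of the control channel (gray) and the 5 mM MAA channel (magenta) at 3 h and 8 h for 9 genes, with circles for replicate 1, squares for replicate 2 and lines through the means; each panel spans the same number of log2 units. The control line rises for Egr1, Id3 and Dusp6 and falls for Cyp1a1, the MAA line falls for Per2, Nr4a1 and Ifi202b, and both move for Srxn1 and Cxcl10.

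To place these patterns beside the DNA in front of the genes, 300 bases around the transcription start (250 before, 50 after) are shown for a gene whose control signal fell (Cyp1a1), a gene whose control signal rose (Id3), a gene whose MAA signal fell (Per1) and a gene whose MAA signal rose (Srxn1), from RefSeq on GRCm38.p6. Capitals mark matches, on either strand, to the E-box CACGTG, the AP-1 element TGACTCA, the cAMP response element TGACGTCA, the core of the xenobiotic response element GCGTG, or the GC box GGGCGG. These occurred in 7.15%, 5.2%, 1.79%, 32.4% and 35.7% of 32851 promoters of the same length.
Cyp1a1 (chr9:57697363-57697662, + strand): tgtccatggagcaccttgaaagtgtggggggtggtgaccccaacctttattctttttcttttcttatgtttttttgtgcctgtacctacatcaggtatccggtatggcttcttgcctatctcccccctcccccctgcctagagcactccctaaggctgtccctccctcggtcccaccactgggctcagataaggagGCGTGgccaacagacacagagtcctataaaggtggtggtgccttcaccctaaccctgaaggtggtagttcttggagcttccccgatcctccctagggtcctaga
Id3 (chr4:136143572-136143871, + strand): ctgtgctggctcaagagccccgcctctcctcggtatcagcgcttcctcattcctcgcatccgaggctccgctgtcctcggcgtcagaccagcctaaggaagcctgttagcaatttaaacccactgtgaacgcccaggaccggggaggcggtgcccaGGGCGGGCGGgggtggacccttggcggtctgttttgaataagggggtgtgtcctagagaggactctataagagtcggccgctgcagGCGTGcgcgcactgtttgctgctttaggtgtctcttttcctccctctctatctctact
Per1 (chr11:69098699-69098998, + strand; 1 of 2 listed starts): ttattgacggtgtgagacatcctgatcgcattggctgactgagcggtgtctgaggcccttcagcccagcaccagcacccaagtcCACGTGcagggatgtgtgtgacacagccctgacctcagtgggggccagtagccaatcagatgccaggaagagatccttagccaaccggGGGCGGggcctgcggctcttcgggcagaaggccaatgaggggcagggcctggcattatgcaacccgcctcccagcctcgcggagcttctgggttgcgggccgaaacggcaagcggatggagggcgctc
Srxn1 (chr2:152105274-152105573, + strand): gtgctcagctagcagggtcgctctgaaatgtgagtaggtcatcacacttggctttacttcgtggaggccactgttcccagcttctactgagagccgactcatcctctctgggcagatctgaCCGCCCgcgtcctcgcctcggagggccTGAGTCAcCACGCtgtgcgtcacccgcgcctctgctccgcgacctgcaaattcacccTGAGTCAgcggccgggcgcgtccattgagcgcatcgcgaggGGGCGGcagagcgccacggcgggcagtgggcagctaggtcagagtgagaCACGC
The Cyp1a1 window held 1 xenobiotic response element core, 54 bases before the start. In Id3 there were 2 overlapping GC boxes and 1 such core, and in Per1 an E-box 166 bases and a GC box 78 bases before the start. The Srxn1 window held 2 AP-1 elements, 102 and 45 bases before the start, with 2 GC boxes and 2 xenobiotic cores, and none of the 4 windows held the cAMP response element. The letters alone do not show that a factor bound.

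At 1 mM MAA no probe passed the same test between 8 h and 3 h (limma, adjusted p under 0.05), with 3538 at an unadjusted p under 0.05. The difference of the differences, 5 mM minus 1 mM, was called for 5 probes (0.0121%), with 2802 at an unadjusted p under 0.05: Id2, Id3, Dusp6, Sema3a and Slc24a3, a sodium/potassium/calcium exchanger. All 5 had a lower ratio at 8 h at 5 mM and little change at 1 mM. The Id2 and Sema3a probes used above for the largest decreases did not pass this test (-2.30 and -1.93, limma adjusted p = 0.101 and 0.0959). No probe passed with the slide as a covariate. For Id3 the ratios at 1 mM were -0.06 and -0.06 at 3 h and -0.29 and -0.10 at 8 h, against 0.03, 0.06, -2.07 and -1.83 at 5 mM, a gap between the concentrations of -1.86 ± 0.15 (adjusted p = 0.0269). Dusp6, the cytoplasmic ERK phosphatase, went from 0.31 and 0.30 to 0.48 and 0.50 at 1 mM, and from 1.34 and 1.28 to -0.09 and 0.08 at 5 mM. It thus stood over the controls at 5 mM early on and level with them later. From 3 h to 8 h the Dusp6 signal rose by 1.86 in the controls of the 1 mM arrays, 2.04 with 1 mM MAA, 1.82 in the controls of the 5 mM arrays and 0.51 with 5 mM MAA. Id2, by its other probe, rose by 2.07, 2.09, 1.92 and 0.03 in the same order, and Id3 by 2.34, 2.21, 2.29 and 0.30. In these 3 genes the signal of cells at 1 mM rose about as far as that of the controls, and that of cells at 5 mM rose less or hardly at all. Sema3a and Slc24a3 rose by 0.61 to 0.80 in controls and by 0.71 and 0.75 with 1 mM MAA, whereas with 5 mM MAA they fell by 0.84 and 0.86.

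**Figure D4:**
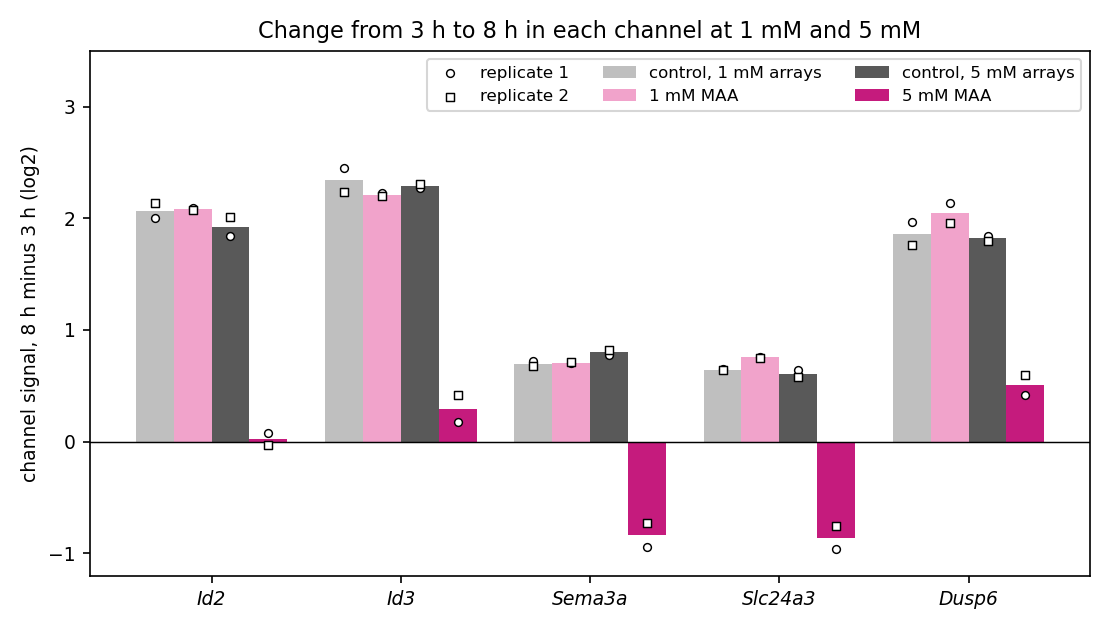
Change in log2 signal from 3 h to 8 h (y axis) in the control and MAA channels of the 1 mM and 5 mM arrays for the 5 probes whose time course differed between the concentrations; bars are the fitted changes, circles and squares the changes of replicates 1 and 2. The first 3 bars of each gene stand at like heights, and the bar for 5 mM MAA is near 0 for Id2 and Id3, low for Dusp6 and negative for Sema3a and Slc24a3.

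The response itself, called at an unadjusted p under 0.005 and over 2-fold thresholds taken from the study's methods, covered 1547 probes at 3 h (3.76%) and 2284 at 8 h (5.55%). Among the probes whose ratio was higher at 8 h, 335 were in the response only by the 8 h test, as increases, with a median log2 ratio of 0.31 at 3 h, 1.45 at 8 h and 1.48 at 24 h. Another 43 were increased at both times, with medians of 1.27 and 2.34, and 93 were decreased at 3 h and not called at 8 h, with medians of -1.19 and -0.42. Among those with a lower ratio, 269 were decreased by the 8 h test only (median -0.49 at 3 h and -1.33 at 8 h), 29 were decreased at both times, and 99 were increased at 3 h and not called at 8 h, with medians of 1.33 and 0.42 and of 0.31 at 24 h. Only 4 probes were called in opposite directions at the times. The remaining called differences included 657 higher and 539 lower ones in probes that passed the response test at neither time.

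For the gene lists, rose and fell refer to the ratio unless a channel is named. Over all genes 6.50% were called, 3.80% higher and 2.70% lower. The phosphoinositide, deacetylase, collagen and transporter lists were called at close to that share, so their calls are given as single genes and not as a trait of the list. Their calls rested on the arrays and the scaling. Centering on the array median left no call among the histone, S phase, EGF family, CREB and ATF, cell cycle inhibitor, histone deacetylase, collagen, transporter and unfolded protein genes, 1 among oxidative stress genes, and 4 each among ERK feedback inhibitors, TGF-beta and BMP genes and beta protocadherins. With each array left out in turn, 3 interferon-inducible genes, 2 to 3 ERK feedback inhibitors, 2 to 3 TGF-beta and BMP genes, 2 to 3 clock genes and 2 to 4 chemokine genes were called, but 0 to 2 beta protocadherins, 0 to 2 histone genes and 0 to 2 S phase genes, and no cell cycle inhibitor, deacetylase, collagen, transporter or unfolded protein gene.

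By group, the immediate early transcription factors had no common direction: 2 of 27 measured rose and 3 fell, with a median difference of -0.07 against 0.06 over all probes. Beside Egr1, the orphan receptor gene Nr4a1 fell from 1.81 and 2.03 to 1.01 and 1.11 and the AP-1 subunit gene Junb from 0.80 and 0.86 to 0.26 and 0.17, both through the MAA channel (-0.91 and -0.68) with flat controls (-0.06 and -0.07). Jun and Jund, which encode other AP-1 subunits, rose, Jun from 0.55 and 0.55 to 1.18 and 1.15. Fos, Ier3 and Egr2 stayed well over the controls at both times without a called difference, at 1.84, 1.33 and 1.70 at 3 h and 1.77, 1.26 and 1.63 at 8 h. Among ERK feedback inhibitors 5 of 15 fell and none rose: Spry4, Dusp6, Dusp4, Spry1 and Dusp7. Spry1 fell by 0.98 while its control channel rose by 1.05, and Dusp4, the nuclear ERK phosphatase, by 1.03 while its MAA channel fell by 0.83. Of 10 EGF family genes measured, 2 rose and 2 fell. Btc and Ereg, both ligands, rose, Btc by a bound of at least 2.62-fold and Ereg by 0.76. A second Btc probe, dim in both channels at both times, gave 0.07. The ratio of the receptor gene Egfr fell by 0.51 as its control channel rose by 0.50, with -0.01 in the MAA channel, and 2 of its 4 probes were called. Errfi1, its inhibitor, fell by 0.63, with -0.31 in the MAA and 0.32 in the control channel. The ligand gene Areg, high at both times (2.91 and 3.40), did not pass (0.49, adjusted p = 0.141). In the CREB and ATF family, Atf4 and Atf1 rose by 0.56 and 0.48 and Creb3l2 fell by 0.77 (control channel 0.62), the remaining 8 of 11 not passing.

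**Figure D5:**
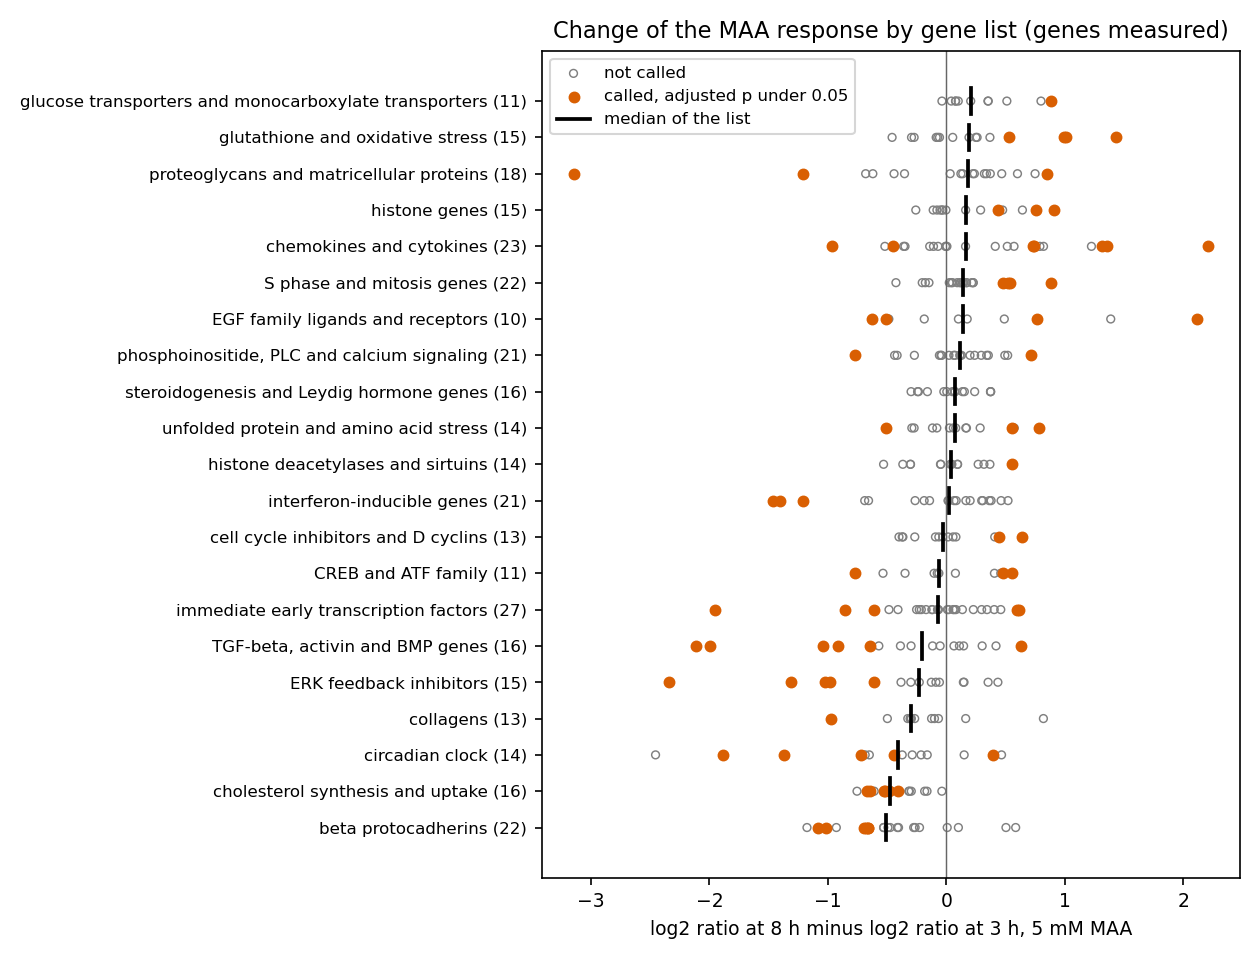
Difference of the log2 ratio, 8 h minus 3 h at 5 mM (x axis), for each measured gene of 21 gene lists (rows, with the number measured), filled where called and open where not; the black bar is the median of the list. Every filled mark lies below 0 for the beta protocadherins, cholesterol genes, collagens, ERK feedback inhibitors and interferon-inducible genes, and above 0 for the histone, S phase and oxidative stress genes.

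Of the genes of the TGF-beta, activin and BMP pathways, 5 of 16 fell and 1 rose, with a median difference of -0.21. Id1 fell with Id2 and Id3, from 0.36 and 0.08 to -0.70 and -0.94; both of its channels rose, the control channel more (1.57 against 0.53). The ligand gene Tgfb2 fell by 0.91 and Fst, an activin inhibitor, by 0.64, and Bmp4, the ligand, rose by 0.63. The circadian genes included 4 of 14 that fell, Per2, Per1, Cry2 and Tef, and 1 that rose, Bmal1 (0.39), which encodes the activator of the loop. Further probes, not called, gave -0.66 for Cry2 and -0.14 and -0.29 for Tef. Per1 went from 1.06 and 1.09 to -0.36 and -0.23, and Cry2, the repressor that pairs with the PER proteins, from 0.99 and 1.08 to 0.21 and 0.41; the MAA channel fell in both (-0.99 and -1.21), and the controls rose for Per1 (0.38) and fell for Cry2 (-0.49). At 1 mM the differences of Per1 and Per2 were -0.51 and -0.63, neither called. Per3 had the lowest value of the list, -2.45, but was dim and did not pass (adjusted p = 0.0872).

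Of the interferon-inducible genes, 3 of 21 fell and none rose. These were Ifi202b, Ifi204 and Ifi205, neighbors of the p200 family whose proteins sense DNA and restrain growth, with differences of -1.47 ± 0.09, -1.21 ± 0.09 and -1.40 ± 0.14 (adjusted p = 0.0014, 0.00234 and 0.0046; 1 of 2 probes for Ifi205). Their ratios were near 0 at 3 h and between -1.38 and -1.14 on every 8 h array, and near-identical members of this family may share probe signal. The classic interferon targets Isg15 and Irf1 were at 0.01 and 0.38, not called. Among chemokines and cytokines 5 of 23 rose and 2 fell. Cxcl10, which attracts T cells, went from 2.18 and 2.25 to 3.63 and 3.52, and the neutrophil chemokine gene Cxcl5 from -3.004 and -2.68 to -1.37 and -1.69, a partial return toward the controls. Cxcl1, of the same class, was -1.90 and -2.16 at 3 h and -1.19 and -1.41 at 8 h. Il15 and Kitl also rose, although the Il15 probe was above background only in the MAA channel at 8 h, and Tnfsf11, which encodes RANKL, fell by 0.97 as its controls rose by 1.63.

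In the glutathione and oxidative stress list 4 of 15 rose and none fell. Srxn1 rose by 1.43 ± 0.08 (adjusted p = 0.00123; all 3 of its probes were called), Txnrd1, thioredoxin reductase, by 1.01, Gclc, the catalytic subunit that limits glutathione synthesis, by 0.99, and Hmox1, heme oxygenase, by 0.53. The MAA channel rose for Srxn1 and Txnrd1 (0.89 and 0.43) and not for Gclc (0.06), and it fell for Hmox1, the control channel falling in all 4, by 0.54 to 0.93. Nqo1 and Gclm, which are often grouped with them, were at 0.25 and 0.37, not called. Among 14 unfolded protein and amino acid stress genes Chac1, a glutathione-degrading enzyme, and Atf4 rose by 0.78 and 0.56, and Dnajb9, a chaperone of the endoplasmic reticulum, fell by 0.51.

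Of 16 cholesterol genes 6 fell and none rose, and all 16 differences were below 0, with a median of -0.47. Cyp51, Nsdhl, Insig1, Hmgcs1 and Fdps were among those that fell. Cyp51, the lanosterol demethylase, went from -0.20 and -0.29 to -0.99 and -0.85 (adjusted p = 0.0106, and both further probes were called), and Insig1, the sterol sensor that holds back SREBP, from -0.62 and -0.61 to -1.14 and -1.12. A second Insig1 probe gave a difference of -0.39 and was not called. The median change was 0.06 in the MAA channel and 0.48 in the control channel of this list. Without replicate 1 or replicate 2 at 8 h, or replicate 2 at 3 h, no gene of the list was called, and without replicate 1 at 3 h 2 were, while the median stayed between -0.48 and -0.44. None of the 16 steroidogenesis and Leydig hormone genes was called in the limma fit over all arrays (0 at an unadjusted p under 0.05), and 1 was called higher under normexp and with the deposited log ratios; Star, the cholesterol carrier of the mitochondrion, was above the controls at both times (0.94 and 0.64).

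The beta protocadherins, a cluster of cell adhesion genes with closely similar sequences that can share probe signal, fell in 6 of 22, with a median difference of -0.51 and 18 of 22 below 0. They were already under the controls at 3 h (median -0.85) and further under them at 8 h (-1.40). Pcdhb19 went from -1.18 and -1.06 to -2.28 and -1.99 and Pcdhb7 from -0.66 and -0.73 to -1.45 and -1.30; for 8 of the 22 the probe was well above background on all 4 arrays in neither channel. Among proteoglycans Ogn, osteoglycin, fell by 1.21 through the MAA channel (-1.31), together with Omd, and Ccn5 rose by 0.85; the other 15 of 18 did not pass. Col3a1, of fibrillar collagen, was the 1 of 13 collagen genes that fell (-0.97).

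Histone genes rose in 3 of 15, namely H2bc21, H1f2 and H1f0, by 0.91, 0.76 and 0.43 (1 of 3 probes for H1f0), none falling. H2bc21 went from 0.39 and 0.19 to 1.12 and 1.28. Of 14 histone deacetylases and sirtuins, Sirt1, an NAD-dependent deacetylase, was called (0.56), and with the deposited log ratios 2 were higher and 1 lower. A second Sirt1 probe gave 0.47 and was not called. In the S phase and mitosis list 4 of 22 rose and none fell: Cdt1 and Cdc6, which license replication origins, Ccne2, the cyclin of the G1/S step, and Top2a, by 0.88, 0.52, 0.54 and 0.48. A second probe was not called for Cdc6 (0.54, limma adjusted p = 0.122) or Top2a (0.33, limma adjusted p = 0.581). For Cdc6 and Ccne2 both channels fell, the control channel more (Ccne2 -0.60 with MAA and -1.13 in controls). The growth arrest genes Gadd45a and Gadd45g rose by 0.64 and 0.44, the 2 calls among 13 cell cycle inhibitors and D cyclins. Of 21 phosphoinositide and calcium signaling genes, Itpkc, an inositol trisphosphate kinase, fell by 0.78. The ratio of Pik3r3, a regulatory subunit of PI3-kinase, rose by 0.72 as its control channel fell by 0.81, with -0.09 in the MAA channel (adjusted p = 0.294). Of 11 glucose and monocarboxylate transporters Slc2a6 was called higher, but its control channel was not well above background at 3 h, so no size is given. Slc2a4, the insulin-responsive transporter, was far over the controls at both times (4.12 and 4.32) with no called difference.

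The defining markers of Leydig cells were partly absent. Of 9 measured, Star, Cyp17a1 and Insl3 were well above background in the control channel on all 4 arrays, Nr5a1 on 1, and Cyp11a1, Hsd3b1, Hsd3b6, Hsd17b3 and Lhcgr on none. Their summed channel signal (linear, scaled between arrays) lay between 475 and 607 in controls and between 463 and 549 with MAA, and no marker was called in this fit. Of 9 Sertoli markers 4 (Clu, Rhox5, Sox9 and Wt1) were detected in all controls, and 3 were called: Clu rose from 0.50 and 0.13 to 1.52 and 1.64, Dhh from 3.03 and 2.54 to 4.22 and 5.05, and Sox9 fell by 1.08 as its control channel rose by 1.07, though its other probes gave 1.36 (dim) and -0.86, neither called. Dhh, the hedgehog ligand of the testis, was not well above background in any control channel and was detected in every MAA channel, where it rose by 2.37, so its ratios are set against controls that were not measured. The Sertoli markers summed to 9061 to 10874 in controls and 8386 to 10358 with MAA, mostly from Wt1. Of 6 peritubular myoid markers 4 were detected in all controls and Cnn1 rose, by 0.79, and no germ cell, macrophage or endothelial marker was called, and no endothelial marker was detected in all controls. The myoid markers summed to 20614 to 23649 in controls and 24296 to 30698 with MAA, mostly from Acta2. The germ cell markers (Ddx4, Prm1 and Tnp1 detected in all controls) summed to 1565 and 1816 in controls at 3 h and 589 and 973 at 8 h, against 1930 and 2056, then 629 and 858 with MAA. This sum was led by Ddx4, which changed by -1.43 in the control channel and -1.79 in the MAA channel. Prm1 and Tnp1 changed less (-0.38 and -0.61 in controls, -0.36 and -0.48 with MAA), and Prm2 rose (0.68 and 0.78). The macrophage markers, of which Lyz2 was detected, summed to 150 to 252 in controls and 112 to 203 with MAA, and the endothelial ones to 18.1 to 111 and 19.5 to 98.4. The highest endothelial control signals were those of Emcn (83.4) and Tek (34.0), each detected on 1 control array. All cultures were of the single TM3 line, so a signal from a marker of another cell type is read as expression of that gene and not as presence of that cell type. The part of cell composition in these results was not tested, and in RNA from whole cultures fewer cells expressing a gene and less RNA per cell cannot be told apart.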

How the data were processed

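The 12 arrays were scanned and processed by the authors with Agilent Feature Extraction 9.5.3.1, with linear and LOWESS dye normalization. The deposited files hold, per spot, background-corrected and dye-normalized intensity values of both channels and a log10 ratio of red over green, and the deposited value table holds processed log ratios, used as an alternative only. Ratios were turned so that MAA stood over control, taken as log2, and averaged per probe after control spots and outlier flags were left out. Differences were tested with limma 3.58.1 in R 4.3.3 on all 12 arrays, with Benjamini-Hochberg adjustment over 41174 probes, and called at an adjusted p under 0.05. Single channels were scaled between arrays (Aquantile) and tested with a covariate for the replicate, which marks the dye of a channel. The script was tested on simulated data. Groups came from the labels.

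Of the probes, 22147 carried a symbol, 22072 of them through a RefSeq accession (GRCm38.p6). The members and gene lists were chosen with earlier results of these data known. Genes named were the 10 largest called increases and decreases well above background, the 5 largest of each by lower limit among probes dim in 1 combination of channel and time, up to 4 called members of each list by size, and Egr1, Egr2, Slc2a4, Areg and Dhh. All other genes named, such as Slc24a3, Fos and Nqo1, were chosen after their values were seen. Some genes that the rule selects are not reported here. A gene in a list was represented by its probe with the highest mean signal. Alternatives covered background correction, the deposited ratios, centering, dim and outlier spots, slide, replicate block, arrays in the fit, call rules, channel scaling and leaving out each array. Within 2 arrays per time, the number of arrays limits the precision. The error model used by the authors was not run here.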

Additional observations from a re-analysis of the deposited data

Results flagged for a closer look

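For 5 probes the change of the log2 ratio from 3 h to 8 h differed between 5 mM and 1 mM MAA by a test of that difference (limma, all 12 arrays, adjusted p under 0.05). The change at 5 mM minus that at 1 mM was -1.91 ± 0.13 for Id2 (adjusted p = 0.0269), -1.86 ± 0.15 for Id3 (adjusted p = 0.0269) and -1.65 ± 0.13 for Sema3a (adjusted p = 0.0269). It was -1.58 ± 0.12 for Slc24a3 (adjusted p = 0.0269) and -1.50 ± 0.12 for Dusp6 (adjusted p = 0.0269). In each the 2 arrays at 8 h and 5 mM lay below the 2 at 3 h. The arrays of the times also lay apart in every called probe and in 44.5% of all probes. With the slide as a covariate 0 probes passed the test between concentrations, and with the replicate block 97 did. A further probe each for Id2 and Sema3a did not pass in the fit without these terms (-2.30 and -1.93, limma adjusted p = 0.101 and 0.0959).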

How the results depend on the processing

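The count of 2101 called probes (1151 higher, 950 lower) depended on the processing. Of the alternatives that could turn a direction, normexp and loess left it in 2097 probes, and the deposited log ratios, centering and slide in all 2101; leaving out an array could not, since the arrays of these probes do not overlap between the times. The counts called, higher and lower were 3393, 1909 and 1484 under normexp and loess, 3837, 2087 and 1750 with the deposited log ratios, 4155, 2182 and 1973 without dim probes (fewer probes tested), 3396, 1925 and 1471 with slide as a covariate, and 640, 207 and 433 with arrays centered on the median. Fits of the 4 arrays alone and of the 6 arrays at 5 mM alone called 0, 0 and 0. They were 603, 358 and 245 at an unadjusted p under 0.005 and 2-fold, 504, 304 and 200 at an adjusted p under 0.05 and 2-fold, and 1041, 608 and 433 by 1 probe per symbol. Leaving out 1 array gave 235 to 918 calls, 109 to 562 higher and 126 to 356 lower. The control channel had 17208 calls without scaling between arrays and 17252 with the 1 mM controls, against 11392. The cause of these shifts was not tested. Of the 89 named probes that were called, 43 lost their call under centering, 9 with slide and 6 under normexp.

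Same-numbered arrays shared a dye orientation, and their deviations correlated at r = 0.075 to 0.514 over 15 pairs of groups, 14 of them above 0.1 (-0.181 to 0.747 among probes well above background). The labels give no other tie between same-numbered arrays, and the reported fit has no term for this shared deviation. With the replicate block 5271 probes were called, 2895 higher and 2376 lower, including all 2101; it called 12 beta protocadherins against 6, 10 cholesterol genes against 6, 5 histone deacetylases and sirtuins against 1, and 1 steroidogenesis gene and 1 Leydig marker against none. The test between concentrations gave 97 calls with the replicate block and 0 with slide, against 5.

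Signs turned for values near 0. The Egr2 difference was 0.10 under normexp, 0.013 with slide and -0.26 to 0.12 with 1 array left out, and that of Slc2a4 was -0.038 to 0.45 with 1 array left out. Without scaling between arrays the MAA channel changed by 0.10 for Errfi1, 0.15 for Tgfb2, 0.30 for Pcdhb19, 0.0072 for Pcdhb7, 0.016 for Nsdhl and 0.038 for Tef, and the control channel by 0.24 for Cyp2c23, 0.14 for Brinp3, 0.14 for Ereg and 0.013 for Cry2.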
